A study of Schizosaccharomyces pombe with 2 samples.

Results

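The histone genes of fission yeast (Schizosaccharomyces pombe) were compared between cells without mga2 and control cells, all held without oxygen. The genes were chosen by name from a reference annotation, with earlier results of these data known. Each was measured by 1 probe: hta1 and hta2 (histone H2A), htb1 (H2B), hht1, hht2 and hht3 (H3), hhf1, hhf2 and hhf3 (H4) and pht1 (the H2A variant H2A.Z). These are 10 of the 5057 genes with a probe on the arrays, and all 10 were well above background in both strains on both arrays and entered the test of 4967 genes.

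Core histones package DNA: pairs of H3 with H4 and of H2A with H2B build the nucleosome around which the DNA is wound. Their genes are transcribed mainly during S phase, when new DNA has to be packaged, and in yeasts the messages carry poly(A) tails, so that oligo-dT priming, as used here, can copy them. In fission yeast each H3 gene lies beside an H4 gene and hta1 lies beside htb1, in pairs that are read outwards from a shared stretch between them, while hta2 and pht1 stand alone. H2A.Z is placed into nucleosomes outside replication by the SWR1 complex.

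The mga2Δ strain was ESY173 and the control strain was KGY425, called WT here as in the labels. Mga2 activates transcription, and the study asked what its loss does to lipid homeostasis and to SREBPs, the sterol-responsive transcription factors. According to the design text both strains also lack sre1, an SREBP gene, so that ESY173 is the double mutant and KGY425 the single one. Log-phase cultures in rich YES medium spent 1.5 h in an anaerobic chamber, no synchronisation is mentioned, each genotype is represented by 1 strain, and cells kept in oxygen were not analysed here. RNA of 2 biological replicate pairs was put on 2 two-colour Agilent arrays with the dyes swapped, mga2Δ RNA being in Cy5 on array 1 and in Cy3 on array 2.

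Median gene spot signals were 897.5 (Cy3) and 2322.5 (Cy5) on array 1, and 858 and 1579 on array 2, against 18 to 62 at negative control spots. The mga2 transcript had log2 ratios of mga2Δ over WT of −7.27 and −6.13. It was not well above background in mga2Δ (0 and 1 of 3 spots), and was at least 85.0-fold lower there, a bound set by the dimmest probes that were above background. For sre1, no spot was well above background with RNA of either strain. Every mean below is over 2 arrays and every SD is between them, so the number of arrays limits the precision. An exact permutation test of a single value could not go below p = 0.5 with 2 arrays, so the p-values are from limma fitted across all genes, adjusted by Benjamini-Hochberg, with 0.05 as the threshold. They rest on 1 residual degree of freedom per gene and on a spread shared between genes. A log2 ratio of 1 would be a doubling in mga2Δ relative to the bulk of genes.

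All 9 core histone genes were raised in mga2Δ and none was lowered, while pht1 was not called in either direction. Over all genes tested, 18.5% were raised and 10.9% lowered. Because the set was chosen with earlier results of these data known, setting its count beside these shares is no test. The median log2 ratio of the core genes was 0.78, beside 0.0041 over all genes tested. The arrays measure RNA of whole cultures, so a larger share of cells in S phase and more histone RNA per cell cannot be told apart. All 9 lay above 0 on both arrays, as did 40% of the other genes tested. Copies of H3 and of H4 are nearly identical in sequence, and no probe sequence was used here to see whether a probe reads only its own copy, so the 3 probes of each are given singly below but counted as 1 measurement, averaged, for each histone. With the copies averaged the genes give 6 measurements, of which 5 were raised (18.4% of all rows in that fit were), and their order by mean was H4, H3, hta1, hta2, htb1 and pht1.

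**Figure D1:**
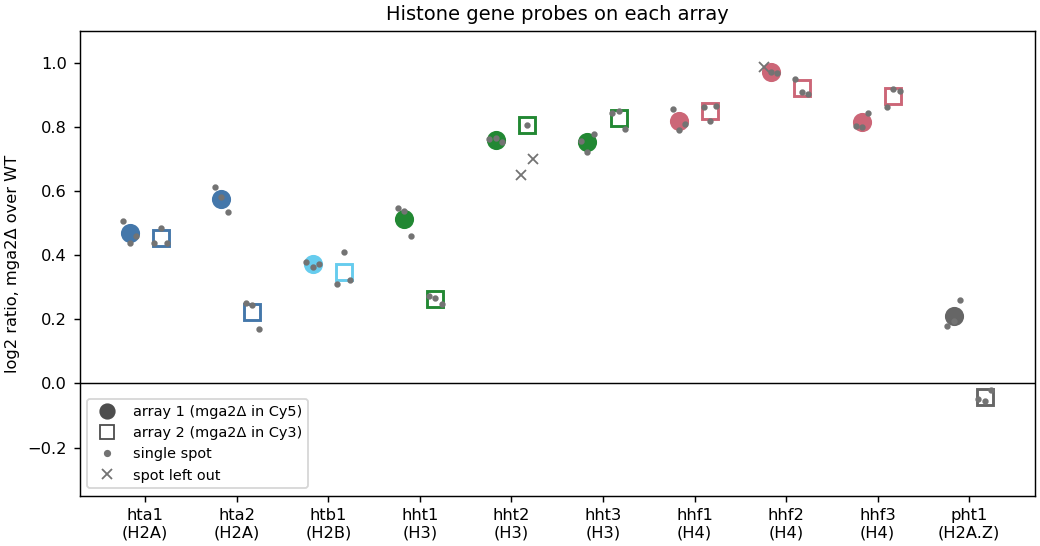
Log2 ratios of mga2Δ over WT (vertical axis) of the 10 histone gene probes, with filled circles for array 1, open squares for array 2, small points for single spots and crosses for spots left out as outliers. The H4 probes and 2 of the 3 H3 probes lie between 0.75 and 0.97 on both arrays, hta1 and htb1 between 0.35 and 0.47, and hta2, hht1 and pht1 are lower on array 2 than on array 1.

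Histone H4, the partner of H3 in the central tetramer of the nucleosome, had the highest ratio of the 6 measurements. The normalized log2 signal of hhf2 was 14.48 in mga2Δ against 13.51 in WT on array 1, and 14.54 against 13.62 on array 2. That of hhf1 was 15.47 against 14.65 on array 1 and 15.59 against 14.74 on array 2. That of hhf3 was 15.42 in mga2Δ against 14.60 in WT on array 1, and 15.62 against 14.72 on array 2. Both mga2Δ signals were above both WT signals for each probe. The share of all genes with such a separation was not counted. The log2 ratios were 0.95 ± 0.035 for hhf2, 0.86 ± 0.058 for hhf3 and 0.83 ± 0.021 for hhf1 (SD, n = 2 arrays). The hhf2 ratio was 0.97 and 0.92 on the arrays, and its first array 1 spot was left out as an outlier. Averaged over the 3 probes, H4 stood at 0.87 on array 1 and 0.89 on array 2, a 1.84-fold rise (mean 0.88 ± 0.015, 95% interval 0.67 to 1.09, limma adjusted p = 0.000724). Of all rows in that fit, 5.16% had a higher mean.

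Of the 3 H3 probes, hht1 had the lowest ratio on both arrays. The normalized log2 signal of hht3 was 14.37 in mga2Δ against 13.62 in WT on array 1, and 14.50 against 13.67 on array 2. That of hht2 was 14.36 against 13.60 on array 1 and 14.49 against 13.68 on array 2. Their log2 ratios of 0.79 ± 0.054 and 0.78 ± 0.032 lay close together, hht2 minus hht3 being 0.01 on array 1 and −0.02 on array 2. On array 2 the hht2 value rests on 1 spot, because the other 2 were called outliers, and with those spots kept, a setting chosen after seeing the data, the mean was 0.74. The hht1 signal was 13.83 in mga2Δ against 13.32 in WT on array 1, and 13.70 against 13.44 on array 2. The hht1 ratio was smaller than those of hht2 and hht3, at 0.51 and 0.26 (mean 0.39 ± 0.18, limma adjusted p = 0.0299).

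The gap between hht2 and hht1 was 0.25 on array 1 and 0.54 on array 2 (SD of the gap 0.21), and under median centring it was 0.26 and 0.36. The gap thus differed between the arrays, and it was not tested. Within an array the used spots of a histone probe spanned at most 0.10, which covers technical spread alone. Averaged over the 3 probes, H3 was raised 1.57-fold (0.68 and 0.63, mean 0.65 ± 0.030, 95% interval 0.44 to 0.87, limma adjusted p = 0.00272). Within the divergent pairs the hhf3 ratio exceeded that of its neighbour hht3 by 0.06 and 0.07 and the hhf2 ratio that of hht2 by 0.21 and 0.12, while hhf1 exceeded hht1, with which it shares its upstream stretch, by 0.31 and 0.59, from the same low hht1 values. Under median centring the hhf2 gap was 0.21 and 0.11, but that of hhf1 over hht1 was 0.41 and 0.02 and that of hhf3 over hht3 was 0.15 and −0.32, so on array 2 these did not keep their size or, for hhf3, their direction. These gaps are differences between probes and were not tested.

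**Figure D2:**
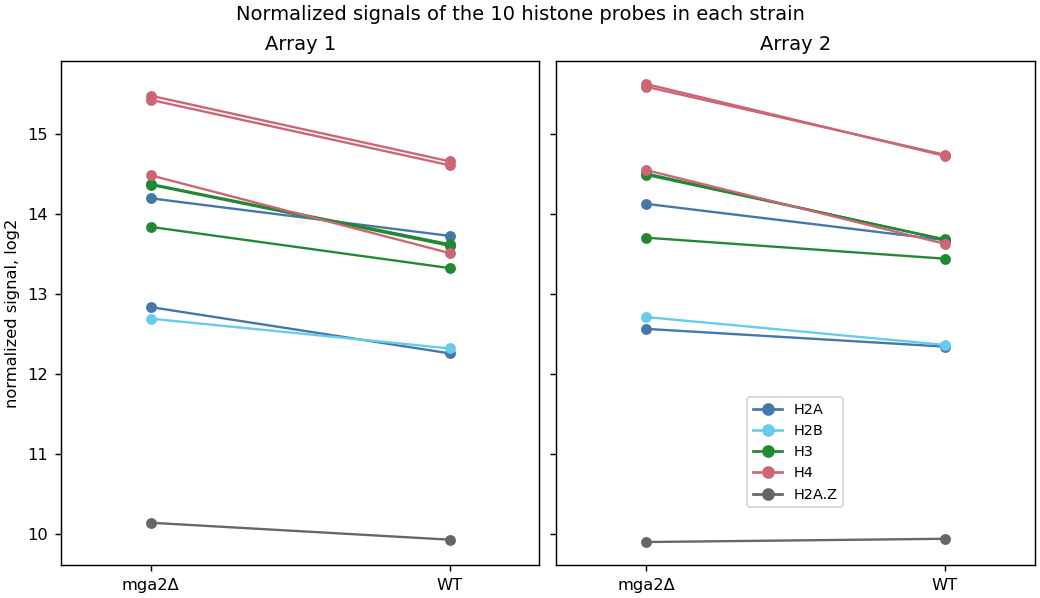
Normalized log2 signals (vertical axis) of the 10 probes in mga2Δ and WT, 1 panel per array and 1 line per probe, coloured by histone. Each core histone line is higher at its mga2Δ end on both arrays, whereas the pht1 line ends at 10.14 in mga2Δ and 9.93 in WT on array 1 and at 9.90 and 9.94 on array 2; heights of different probes are not comparable levels.

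H2A and H2B, which join the nucleosome as dimers, rose by 1.28-fold to 1.38-fold. The normalized log2 signal of hta1 was 14.19 in mga2Δ against 13.72 in WT on array 1, and 14.12 against 13.67 on array 2. That of htb1, the only H2B gene of this yeast, was 12.69 against 12.32 on array 1 and 12.71 against 12.36 on array 2. In the loess fit the divergent pair thus moved by similar amounts. The log2 ratios were 0.47 and 0.45 for hta1 (mean 0.46 ± 0.012, 1.38-fold, limma adjusted p = 0.0103). They were 0.37 and 0.35 for htb1 (mean 0.36 ± 0.017, 1.28-fold, limma adjusted p = 0.0251). The difference of hta1 minus htb1 was 0.10 and 0.11. Under median centring it was 0.07 and −0.27, and in the deposited ratios 0.16 and −0.01, so its size and direction did not hold on array 2. It was not tested.

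The second H2A gene, hta2, had a signal of 12.83 in mga2Δ against 12.25 in WT on array 1, and 12.56 against 12.34 on array 2. The ratio differed between the arrays, at 0.58 and 0.22 (mean 0.40 ± 0.25, 1.32-fold, limma adjusted p = 0.0382). This was the widest gap between arrays among the 10 genes. It was followed by those of pht1 and hht1, both 0.25. The other 7 genes differed by at most 0.08, and the median gap among genes other than histones was 0.14.

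The variant H2A.Z did not pass the test. Its gene pht1 had a normalized log2 signal of 10.14 in mga2Δ against 9.93 in WT on array 1, and 9.90 against 9.94 on array 2, so that the strains overlapped. The ratio was 0.21 on array 1 and −0.04 on array 2 (mean 0.09 ± 0.18, limma adjusted p = 0.563). Its 95% interval ran from −0.16 to 0.33. Of the genes tested, 39.1% had a higher mean than pht1, against 4.75% for hhf2 and 16.1% for htb1.

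**Figure D3:**
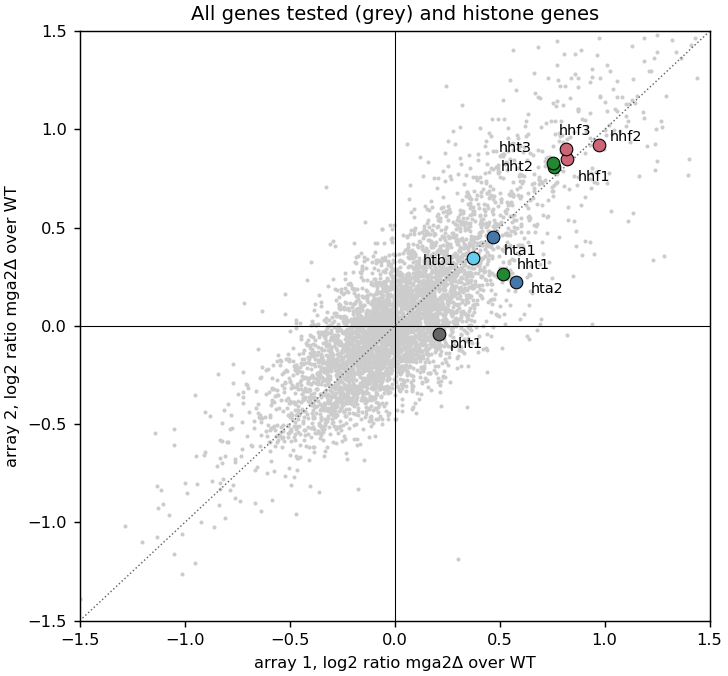
Log2 ratio of mga2Δ over WT on array 2 (vertical axis) against array 1 (horizontal axis), with each gene tested as a grey point, the histone genes coloured by histone, and the dotted line where the arrays are equal; 166 genes lie outside the axes. H4, hht2 and hht3 sit together near the dotted line at the upper right, hta1 and htb1 lower on the same line, and hht1, hta2 and pht1 below it.

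Within each array the H4 ratio exceeded that of htb1 by 0.50 and 0.54, that of H3 by 0.19 and 0.26, and that of pht1 by 0.66 and 0.93. The H3 ratio exceeded that of htb1 by 0.30 and 0.29. Such differences do not depend on where the ratios are centred, but they do depend on how each array was corrected for brightness. The H4 probes of hhf1 and hhf3 were among the brightest, with 143 to 159 of 4967 probes brighter, against 2902 and 3019 probes brighter than pht1.

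When each array was centred on its median with no correction for brightness, the H4 ratio was 0.92 on array 1 and −0.12 on array 2, and the H3 ratio 0.66 and −0.06. Their means of 0.40 and 0.30 remained above 0 but did not pass (limma adjusted p = 0.505 for both), and none of the 9 core genes was called, while 2.94% of all genes tested were raised. All 9 means stayed above 0, between 0.09 and 0.57, but 4 genes (htb1, hht2, hht3 and hhf2) were above 0 on both arrays. Under that centring H4 exceeded htb1 by 0.52 on array 1 and fell below it, at −0.18, on array 2. The loess step had changed the hhf1 ratio by little on array 1 and by over 1 log2 unit on array 2: median centring gave 0.08 more and 1.14 less. For pht1 it gave 0.04 and 0.01 more.

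Means of the core genes stayed above 0 in the settings that follow. With the processed signals of the scanner software H4 stood at 0.90 and H3 at 0.66, and 8 of the 9 core genes were raised (17.8% of all genes were). On array 2 the first hhf1 spot read 23783.9 in mga2Δ and 53844.4 in WT before processing and 42381.88 and 23311.18 after it. The first pht1 spot read 550.5 and 1079 before it and 689.27 and 732.28 after it. Processing thus reversed the strains for this bright spot but not for the dimmer one, so this setting is not free of a correction for brightness. In the authors' deposited ratios, whose normalization is unknown here, H4 stood at 0.75 and H3 at 0.49, and 6 core genes were raised, hta1, hht2, hht3 and the H4 genes (15.1% of all genes were). The deposited ratios tracked the scanner log ratios (r = 0.986 on each array), so these 2 settings are not independent of each other. On the same loess ratios, halving the weight of the spread shared between genes also left 6, with 10% of all genes raised, and the 3 calls lost in both cases were hta2, htb1 and hht1. Centring these ratios on the spike-in RNAs shifted all genes alike by 0.20, so the core median necessarily stayed 0.78 above that of all genes. In the mean H4 was first, H3 second and pht1 last of the 6 measurements in these settings and with median centring. Halving the weight of the shared spread and spike-in centring could not change this order. With median centring the order did not hold on array 2, where H4 (−0.12) and H3 (−0.06) lay below pht1 (−0.03). No core gene was called against a 1.5-fold threshold (4.05% of all genes were raised), and the lowest limma adjusted p was 0.0552, for hhf2. The loess ratios with both arrays read as Cy5 over Cy3 were between −0.04 and 0.18 for the 10 genes.

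**Figure D4:**
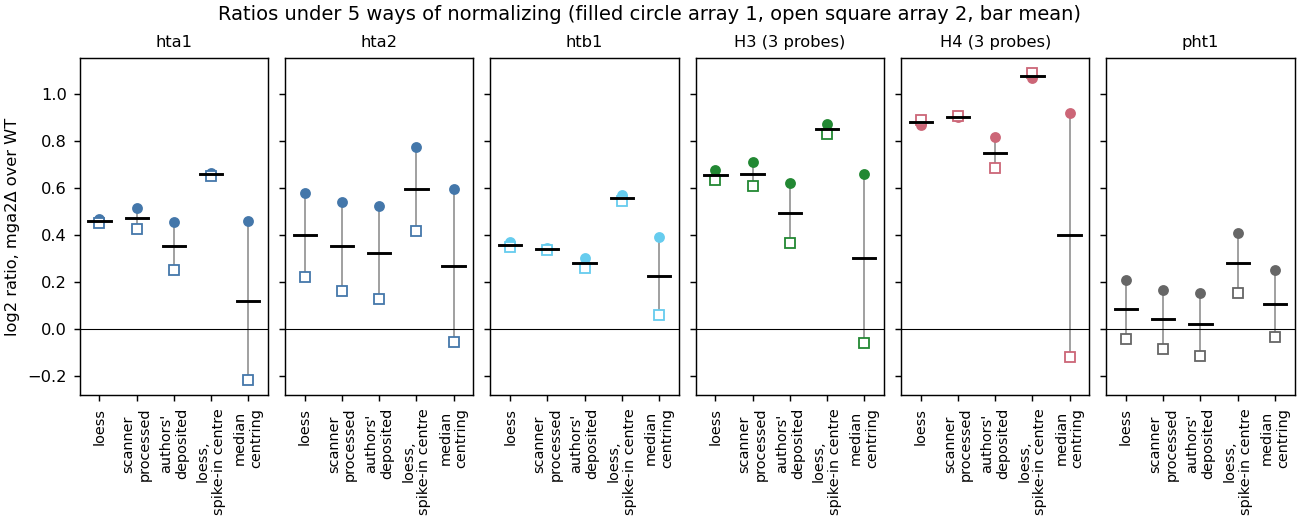
Log2 ratios of mga2Δ over WT (vertical axis) of the 6 histone measurements under 5 ways of normalizing, with filled circles for array 1, open squares for array 2 and bars for the mean. The arrays lie close together for H4 with loess (0.87 and 0.89) and far apart with median centring (0.92 and −0.12).

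Transcripts of cell cycle genes were read beside the histones, in lists set by function. Whether the transcript of each member varies over the cell cycle was not checked. Of 13 G1/S transcripts, which depend on the factor MBF, 2 were raised and 1 was lowered (18.5% and 10.9% over all genes), with a median of −0.01. The raised members were ctp1, a DNA end-processing factor (0.40 ± 0.14), and suc22, the small subunit of ribonucleotide reductase (0.36 ± 0.065), and the lowered one was mik1, a mitotic inhibitor kinase (−0.34 ± 0.086). The large subunit gene cdc22 had a ratio of 0.16 ± 0.062 and did not pass (limma adjusted p = 0.229), although it did under spike-in centring (0.36, adjusted p = 0.0203). The suc22 call did not hold with the deposited ratios (0.19) and that of mik1 did not hold under spike-in centring (−0.15). Under median centring none of the calls in these lists or those below held; suc22 then stood at 0.06 and the others kept their sign.

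Of 35 genes of the DNA replication machinery, 1 was raised and 2 were lowered, with a median of −0.09 (0.10 under spike-in centring). Over all genes 18.5% were raised and 10.9% lowered. With processed signals 0 were raised and 6 lowered, and with the deposited ratios 0 and 9, where 16.3% and 23% of all genes were lowered. The list medians were then −0.19 and −0.23. The called genes of the loess fit were orc4 (0.31 ± 0.063) and orc5 (−0.30 ± 0.045), both subunits of the origin recognition complex, and mcm7, a subunit of the replicative helicase (−0.33 ± 0.095). The orc4 call did not hold with processed signals or deposited ratios, and those of orc5 and mcm7 did not hold under spike-in centring. Of 14 mitosis and cytokinesis transcripts, imp2, a contractile ring protein, was raised (0.40 ± 0.056). The highest mean in these 3 lists was 0.40, beside 0.65 for H3, 0.88 for H4 and 0.36 to 0.46 for the H2A and H2B genes. The part of cell cycle stage in the histone values was not tested.

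Of 10 genes that control histone transcription, 0 were raised and 0 lowered by limma, where 18.5% and 10.9% of all genes were. With processed signals and with the deposited ratios 1 was lowered, where 16.3% and 23% of all genes were. At an unadjusted limma p under 0.05, 1 was lowered, as were 873 of the 4967 genes tested. The separate-channel analysis called none (12.3% of all genes were lowered by it), and eBayes with trend and robust settings lowered 1 (18.5% of all genes). Their ratios lay between −0.27 and 0.06. Among them ams2, the GATA factor that activates the core histone genes in S phase, had ratios of 0.06 and −0.18 (limma adjusted p = 0.696).

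Of 13 genes of proteins that carry and deposit histones, 0 were raised and 1 was lowered, near the 10.9% lowered over all genes, with a median of −0.03. Processed signals and deposited ratios each lowered 2, where they lowered 16.3% and 23% of all genes. Spike-in centring raised 3, where it raised 38.4% of all genes. The gene lowered in the loess fit was nap1, a chaperone of H2A and H2B, at −0.87 on array 1 and −0.79 on array 2 (mean −0.83 ± 0.059, limma adjusted p = 0.000951). With median centring it stood at −0.92 and did not pass (limma adjusted p = 0.0646). Its relative nap2 stood at 0.13, and cnp1, the centromeric H3 variant, at 0.01 (0.05 and −0.03 on the arrays).

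In the SWR1 complex, which exchanges H2A for H2A.Z, swc3 was raised (0.41 ± 0.076) and the other 10 genes tested were not called. The median over the list was 0.0021. Beside this list and those that follow, limma raised 18.5% and lowered 10.9% of all genes tested. Of the histone acetyltransferase and deacetylase genes 0 of 15 were called by limma, with ratios between −0.35 and 0.19. At an unadjusted limma p under 0.05, 2 were lowered, as were 873 of the 4967 genes tested. Separate-channel analysis lowered 0 and eBayes with trend and robust settings 2, beside 12.3% and 18.5% of all genes. Processed signals and deposited ratios each lowered 2 of the 15 and spike-in centring raised 2, beside 16.3%, 23% and 38.4% of all genes. Of 11 histone methylation and ubiquitination genes, lsd2, a relative of histone demethylases, was raised (0.30 ± 0.015, limma adjusted p = 0.044), a call that did not hold with processed signals, deposited ratios or median centring.

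**Figure D5:**
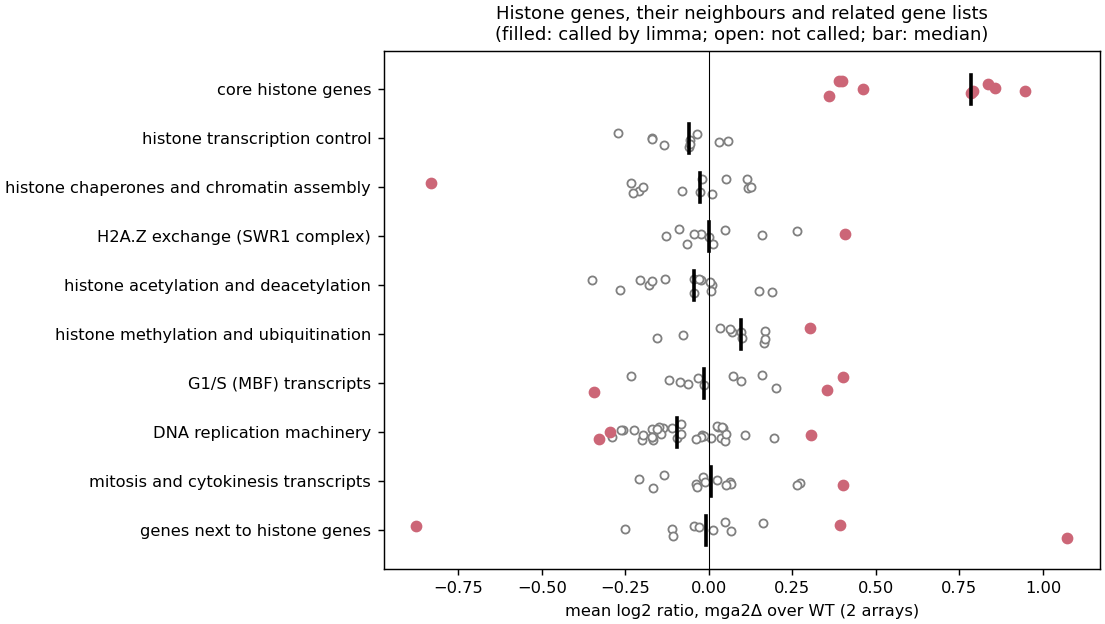
Mean log2 ratio of mga2Δ over WT (horizontal axis) of single genes in the core histone set, 8 related lists and the genes next to histone genes, with filled points for genes called by limma, open points for genes not called and bars for medians. The core histone genes lie between 0.36 and 0.95, while the list medians lie between −0.09 and 0.10.

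The 6 histone loci lie on all 3 chromosomes, and the nearest gene with a probe on each side was read in the same way. Of these 12 neighbours 2 were raised and 1 was lowered, against 18.5% and 10.9% of all genes, and their median was −0.01. Beside the hht3-hhf3 pair, SPBC1105.13c was raised, with a ratio above those of both histone genes (0.98 and 1.17, mean 1.07 ± 0.13, limma adjusted p = 0.000395), while rav1 on the other side stood at 0.01. Beside hta2, rsd1 was raised (0.39 ± 0.050, limma adjusted p = 0.0192) and mce1 was lowered (−0.88 ± 0.053, limma adjusted p = 0.000757). With median centring these 3 calls were lost at similar ratios (1.12, 0.39 and −0.88).

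The neighbours of the other loci were not called, although alg9 passed with the processed signals (limma adjusted p = 0.05 after rounding) and the deposited ratios, and vps68 under spike-in centring. The genes flanking hta1-htb1 stood at −0.11 (SPCC622.07) and 0.05 (sec5), those flanking hht1-hhf1 at −0.04 (aro1) and −0.25 (alg9), and those flanking hht2-hhf2 at 0.16 (vps68) and −0.03 (sfi1). Beside pht1 lay cdc2, the cyclin-dependent kinase of the cell cycle (0.07), and shy1 (−0.11). The reference annotation lists long noncoding RNAs that overlap 7 of the 10 histone genes. Its table gives no strand, and whether such RNAs add to the histone signals was not tested.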

How the data were processed

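The scanner tables were made with Agilent Feature Extraction 10.5.1.1, per the file headers; the submitters' processing notes also name Partek, without a step. Median spot and background intensity, processed intensity and a log10 Cy5 to Cy3 ratio were deposited by the authors for each array, and 1 log2 ratio per probe in the authors' deposited value table, made by a normalization that the sources used here do not give. It runs as mga2Δ over WT (r = 0.986 with the scanner log ratios on each array) with medians of −0.078 and −0.115. Its direction and centre come from that comparison.

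Median signals were corrected with normexp (offset 50) and normalized by loess within each array, leaving control and outlier spots out of the curve (limma 3.58.1, R 4.3.3). Outliers by the scanner software (3.57% and 3.36%) were left out, and no spot was saturated. The 3 spots of a probe were averaged and array 2 was turned. A probe was tested if, on each array, 2 or more spots exceeded background clearly in Cy3, Cy5 or both. Counting only spots kept would have dropped hht2. The ratio was tested against 0 with lmFit and eBayes. No dye term was fitted, since none could be estimated beside an error. Channel signals were taken after loess and Aquantile normalization. Names came from a RefSeq gene table (ASM294v3, names and neighbours only), which matched 5021 of 5057 probes by locus tag and 3 by alias. Of 124 listed symbols 122 were tested, 2 of them under newer names (asf1, listed as cia1, and cdc20, listed as pol2).

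Members and lists were chosen with earlier results of these data known. Named genes were the members, mga2, sre1, ams2, cnp1, cdc22, up to 3 called genes per list with the largest ratios, and the neighbours; nap2 was added after its value was seen. One list of cell cycle transcripts is not reported here. The steps were tested on simulated spots. Figures were drawn with matplotlib 3.10.9 under Python 3.11.15. The alternatives are named in the closing section.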

Additional observations from a re-analysis of the deposited data

How the results depend on the processing

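The mean ratios of H3, H4 and the core genes tested were above 0 in every setting run. Of these settings, only median centring is known to use no correction for brightness. Settings that changed only the probe filter, the test or its threshold kept the same probe ratios, and separate-channel analysis gave the same means. Spike-in centring moved all ratios up alike. None of these settings could turn a core gene mean below 0. Calls of histone genes held except as follows. Beside 917 raised and 543 lowered genes in all, the counts were 146 and 26 with median centring, 1906 and 190 with spike-in centring, 499 and 176 with the prior degrees of freedom halved and 201 and 31 against a 1.5-fold threshold. There were 1140 lowered genes with the deposited ratios, 921 with eBayes trend and robust settings and 817 at an adjusted p of 0.10. The number of histone genes raised was 0 with median centring and with the 1.5-fold threshold. H3 (0.30) and H4 (0.40) did not pass with median centring, nor, at 0.65 and 0.88, against the 1.5-fold threshold (limma adjusted p of 1.00 and 0.126). Single calls of hta2, htb1 and hht1 were lost with the deposited ratios and with the prior halved, and that of hta2 with processed signals (limma adjusted p = 0.0541). Leaving out each array gave single values with no test: 0.63 and 0.68 for H3 and 0.87 and 0.89 for H4. Without hht1, H3 stood at 0.79, and with outlier spots kept at 0.64. Without hht2, which is dropped when the filter counts only spots kept, H3 stood at 0.59. All of these were chosen after seeing the data. No background correction, an offset of 16, scale normalization, other probe filters and separate-channel analysis changed no count of histone calls by over 1.5 times. The cause of the losses was not tested. Of the counts and medians of related lists under median centring, spike-in centring, processed signals and deposited ratios, 49 moved and 47 did not, and in 18 pairings of a list gene and a setting a call was lost. The test used is itself paired, because each ratio already sets the strains of a pair against each other. No further replicate block could be fitted.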
